A study of Mus musculus with 6 samples.

Results

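The genes described here are rows of a mouse RNA-seq count table whose gene ontology (GO) biological process text names the nervous system, neurons, axons or synapses. Of 1653 listed genes, 933 carry a GO biological process text and 150 hold one of the words "nervous system", "neuro", "axon" or "synap". Removing texts that also mention transcription or transport left 82. Removing Gm and Rik names left 62, and 5 genes set aside by name (Wnt8a, Gfra1, Nes, Stmn4 and Wnt3) left 57 members. The rule reads annotation text and names, not counts, but it was drawn up with earlier results of these data known.

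The libraries came from embryonic stem cells of the strain C57BL/6. These are self-renewing cells of the early embryo that can form all body tissues. Cells labelled wild type gave 3 libraries. Cells labelled Yaf2KO, in which Yaf2 was knocked out with Cas9, gave the other 3. Both genotypes grew in serum and leukemia inhibitory factor on mitomycin-inactivated embryonic fibroblasts, so RNA of these feeder cells can be present in every library. The labels do not say how many knockout clones were used or whether replicates were separate cultures, so the spread behind each p-value is that of these libraries and may be only technical.

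Neurons connect through axons, which are guided by secreted and membrane-bound cues, and through synapses, where adhesion proteins hold a transmitter-releasing terminal against a receptor-bearing membrane. Stem cells are not neurons, and many genes of the nervous system stay silent in them until differentiation. YAF2 belongs to the variant forms of Polycomb repressive complex 1, which attach ubiquitin on histone H2A at silent developmental genes, many of them with CpG-rich promoters. The study has 1 contrast, Yaf2KO against wild type. Yaf2 itself has no row in the table, so its level was not analysed here.

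The letters of the rule also caught genes that are not neural. Of the 57 members, 51 carry a neural term. Another 4 entered only through meiotic chromosome synapsis: Fancd2, a DNA crosslink repair protein, Hormad1 and Spata22, which act in meiotic recombination, and Stra8, which starts meiosis. The remaining 2, Rsph4a and Spef2, entered through the axoneme, the core of cilia and flagella (Spef2 also through the neurocranium, part of the skull). Fancd2 alone held 46.7% to 53.4% of all member reads in the wild-type libraries and 27.3% to 48.3% in the Yaf2KO libraries. Results are therefore given for these groups apart. Among the neural terms, neuropeptide signalling was shared by 8 members and synaptic transmission by 7. By annotation 54 members are protein-coding, and 3 rows with clone names (RP23-392K24.8, RP23-149L20.1 and AC156028.1) are not.

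Listed genes summed to between 56367 and 72975 counts in wild type and between 143682 and 451075 in Yaf2KO. These sums cover a part of each library and are not its depth, so raw differences are not corrected for depth. Stem cell identity was checked on 7 of 18 fixed markers that are listed, among them Nanog (1750 to 2756 counts in wild type, 2816 to 20052 in Yaf2KO), Klf4 and Tet2. Feeder fibroblast markers were represented by 7 of 30 symbols, summing to 1583 to 1980 counts in wild type and 4091 to 12495 in Yaf2KO. Tagln and Col1a1 had reads everywhere, Postn was at 0 in wild type 3 and Yaf2KO 1, and Prrx1 was at 0 in Yaf2KO 1. Of 26 neuron markers 2 were listed, Nefm and Gad2. Of 15 markers of glia and neural crest 0 were listed.

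The members had more reads in the knockout libraries, as nearly all listed genes did. Summed over each genotype, the reads of 54 of 57 were more numerous in Yaf2KO, those of 0 less numerous and those of 3 equal. Over all 1653 genes these numbers were 1524, 70 and 59. The knockout counts of 28 members were all above the highest wild-type count, against 27.4% of all listed genes, many of which have few reads. Among the 30 members averaging 10 or more counts the number was 19 (63.3%), near the 59.6% of all listed genes at that level. It was 17 (70.8%) of the 24 neural-term members at that level and 2 (33.3%) of the 6 members caught by letters. In 0 members was every Yaf2KO count lower, as in 0.0% of listed genes. Yaf2KO 1 exceeded all wild-type counts in 51 members (89.5%), Yaf2KO 2 in 42 (73.7%) and Yaf2KO 3 in 32 (56.1%). The shares over all listed genes came in the same order, 80.2%, 63.2% and 37.0%.

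**Figure D1:**
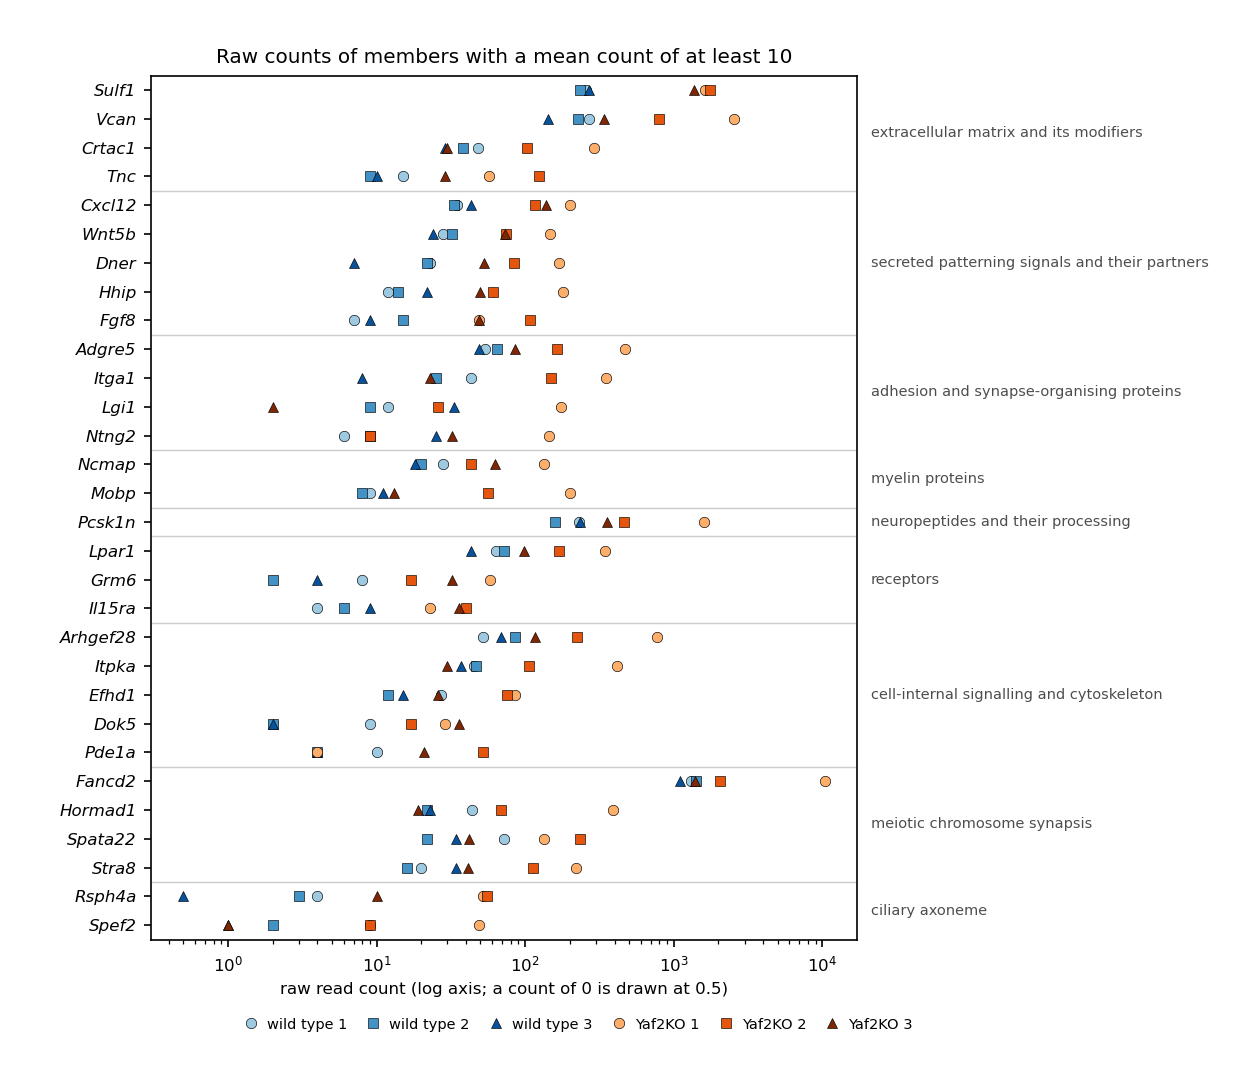
Raw read counts (log axis) of the 30 members averaging 10 or more counts, one symbol per library, blue for wild type and orange to brown for Yaf2KO, grouped by role. In 19 of the 30 genes all Yaf2KO symbols lie to the right of all wild-type symbols, and Yaf2KO 1 is the highest library in 22.

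The comparison was made on 2 scales. On the first, every library was taken as equally deep and the raw counts were tested. On the second, libraries were scaled on the listed genes, which places the typical listed gene at a log2 fold change of 0. At equal depth 26 of 31 tested members were called higher (edgeR quasi-likelihood test, threshold 0.05 after Benjamini-Hochberg adjustment), beside 75.7% of all tested genes. The filter at equal depth can admit a gene through its Yaf2KO reads alone. Dok5, Grm6, Il15ra, Rnf112, Rsph4a and Slitrk2 entered in this way, so their equal-depth calls are no support for a difference. Dner, Fgf8, Itga1, Mobp, Pde1a and Tnc also needed their Yaf2KO reads to pass, since too few of their wild-type libraries reached the cut. Their equal-depth calls carry the same limit. The members' count was near the background. With a library left out, the number of calls changed for members and for all tested genes alike. By edgeR, 1 member was called without wild type 1, 0 without wild type 2 and 0 without wild type 3, beside 5.39%, 0.0% and 0.0% of all tested genes. At an unadjusted p under 0.05 there were then 20, 15 and 17 of 35 tested members. The share of all tested genes at that cut is not given here, so these counts have no background. The log2 fold changes of the 26 called members had medians of 2.57, 2.30 and 2.30 in these fits, beside 2.43 with all libraries, and 5, 0 and 0 of them moved over 1.5-fold. There were 11 member calls without Yaf2KO 1, 17 without Yaf2KO 2 and 33 without Yaf2KO 3, beside 36.1%, 41.9% and 91.5% of all tested genes. Without Yaf2KO 1 the median of the 26 was 1.78, and 13 of them moved over 1.5-fold.

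Scaled on the listed genes, 0 of 27 tested members were called by edgeR and 0 by DESeq2, with 0 at an unadjusted p under 0.05 in either test. The background of calls was 0.798% of tested genes for edgeR and 2.66% for DESeq2. By edgeR, 16 of 376 tested genes had an unadjusted p under 0.05. The members' log2 fold changes ran from -0.72 to 0.97, with 14 above 0 and 13 below. Their median was 0.06, beside -0.03 over all tested genes; for the 23 tested members with a neural term it was 0.13. Standard errors of single members ran from 0.37 to 0.96. In simulated libraries edgeR called 3 of 17 genes made 4-fold higher and 16 of 23 made 8-fold higher. Of genes made 4-fold and 8-fold lower it called 0 of 7 and 8 of 10. The simulation gave all genes a common spread and took means from the whole list, so it does not measure power for the members. The 0 calls therefore do not show that the members were unchanged.

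**Figure D2:**
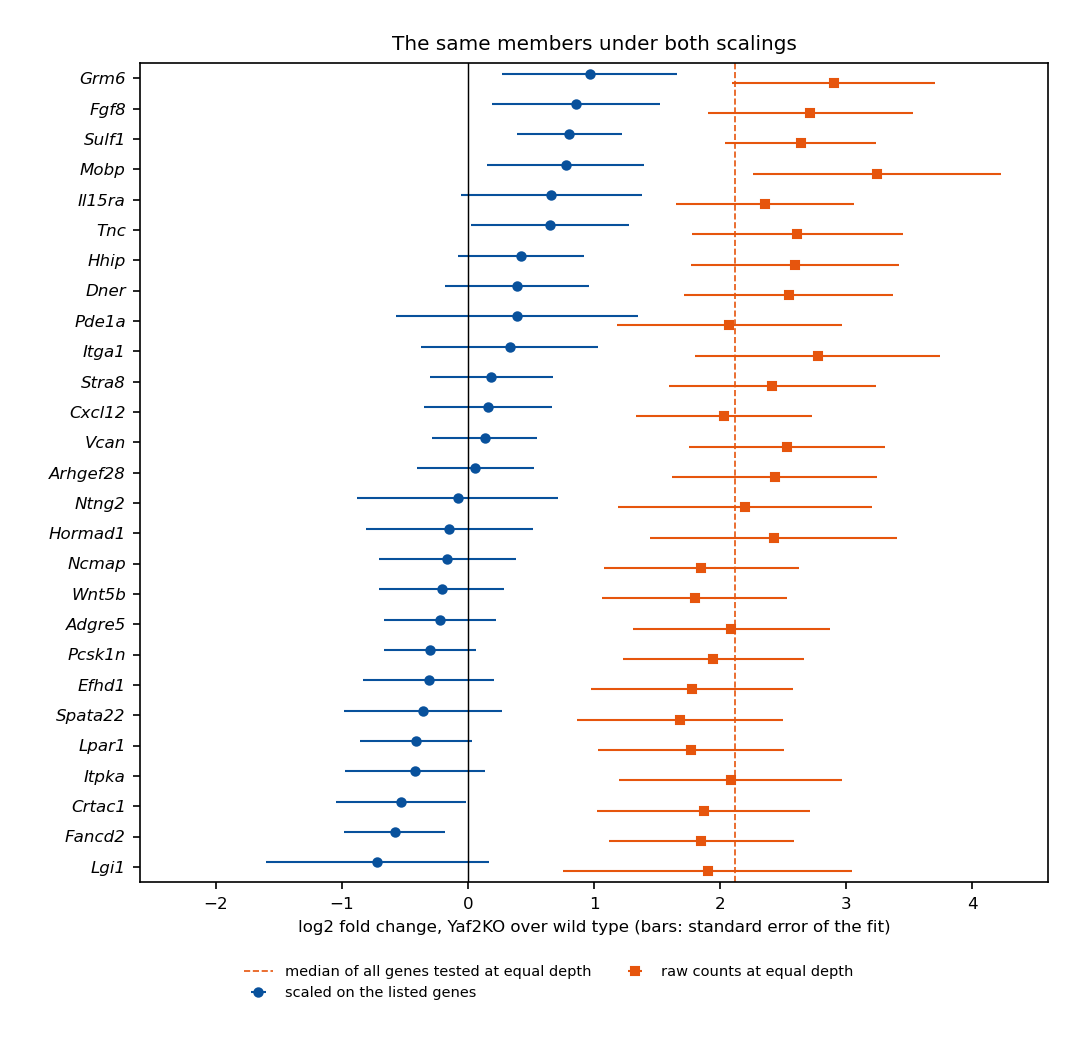
Log2 fold changes (Yaf2KO over wild type) of the 27 members tested on both scales, with standard errors of the fit; blue circles are scaled on the listed genes, orange squares are raw counts at equal depth, and the dashed line is the median of all genes tested at equal depth (2.12). Blue values run from -0.72 for Lgi1 to 0.97 for Grm6 around 0, and the orange values of the same genes lie around the dashed line.

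Proteins of the extracellular matrix, in which axons grow and neural precursors migrate, included the neural-term members with the most reads. Sulf1, on chromosome 1 (12692277 to 12861192, plus strand, mm10), encodes a sulfatase that trims heparan sulfate and so tunes growth factor signalling. It gave 256, 233 and 268 reads in the wild-type libraries and 1619, 1743 and 1359 in the knockouts. All Yaf2KO libraries were high and the groups lay far apart. Its value at equal depth was a log2 fold change of 2.64 (SE 0.60, edgeR adjusted p = 0.0152, higher in 3 of 3 libraries) and ran from 2.56 to 2.74 with single libraries left out. On the list scale it was 0.80 (SE 0.42, unadjusted p = 0.0819, edgeR adjusted p = 0.95), from 3903 ± 105 to 6818 ± 3455 CPM (reads per 1000000 of the scaled listed sum; SD, n = 3 each). Here Yaf2KO 1, at 3335, fell below the wild-type mean, while Yaf2KO 2 and 3 stood at 6876 and 10240.

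Vcan, which encodes the matrix proteoglycan versican, gave 270, 228 and 143 reads in the wild-type libraries and 2561, 802 and 338 in the knockouts. The groups did not overlap, but Yaf2KO 1 held most of the reads. Its equal-depth log2 fold change was 2.53 (SE 0.78, edgeR adjusted p = 0.0224), 1.42 without Yaf2KO 1, and its list-scaled value was 0.13 (SE 0.42). Tnc, encoding the glycoprotein tenascin C, gave 15, 9 and 10 reads against 57, 124 and 29. It was highest in Yaf2KO 2, the library in which the feeder markers summed highest (12495 reads), and their part in this value was not tested. Its equal-depth value was 2.61 (SE 0.84, edgeR adjusted p = 0.0252), 1.91 without Yaf2KO 2, and its list-scaled value 0.65 (SE 0.63), -0.09 without that library. Tnc passed the equal-depth filter only with its Yaf2KO reads. Crtac1, a secreted protein that shapes axon bundles, gave 48, 38 and 29 reads against 289, 103 and 30. Yaf2KO 3 lay within the wild-type range, and the gene was not called on either scale (1.87, SE 0.84, edgeR adjusted p = 0.0541 at equal depth; -0.53, SE 0.52, scaled). Without Yaf2KO 1 its equal-depth value was 0.79. The metalloproteinase inhibitor gene Timp4 gave 0, 0 and 1 reads against 9, 12 and 2; it shares exon sequence with the oppositely oriented gene Syn2. Exons of Crtac1 and Tnc, and of Efhd1, Lgi1 and Pcdh8, are also overlapped by antisense or opposite-strand transcripts. Those of Fancd2, Lrrtm2 and Ptgdr2 are overlapped by the opposite-strand genes Fancd2os, Ctnna1 and Ccdc86. Same-strand Gm models overlap exons of Itga1, Mobp and Dlg2, and the same-strand transcript 6530402F18Rik those of Ntng2. Exons of Hhip and Dner are overlapped by the opposite-strand RNAs Gm27820 and Mir5126.

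Secreted patterning signals and their partners had 6 members, of which 5 averaged at least 10 counts. These 5 were separated in raw counts, as were 59.6% of listed genes at that level, and called higher at equal depth, as were 75.7% of tested genes. Fgf8 and Dner passed the equal-depth filter only with their Yaf2KO reads, so their calls are no support for a difference. List-scaled, 4 lay above 0 and 1 below, with 0 called. Fgf8, a growth factor that organises the midbrain and the limb, lies on chromosome 19 (45736798 to 45742915, minus strand, mm10). It gave 7, 15 and 9 reads in the wild-type libraries and 49, 108 and 49 in the knockouts. Each knockout library was above each control, with Yaf2KO 2 highest. Its change was 2.72 (SE 0.81, edgeR adjusted p = 0.0224) at equal depth and 0.86 (SE 0.67) on the list scale, where single libraries left out gave 0.48 to 1.48.

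Hhip, which encodes a cell-surface antagonist of Hedgehog ligands, gave 12, 14 and 22 reads against 181, 61 and 50. Dner, a Notch-binding membrane protein of neurons, gave 23, 22 and 7 reads against 168, 84 and 53. Neither gene's groups overlapped. They came to 2.60 (SE 0.82) and 2.54 (SE 0.83) at equal depth (edgeR adjusted p = 0.0245 and 0.0259) and 0.42 (SE 0.50) and 0.39 (SE 0.57) scaled; without Yaf2KO 1 the equal-depth value of Hhip was 1.79. Cxcl12, the chemokine that guides motor axons and migrating precursors, gave 35, 33 and 43 reads against 201, 116 and 139. Wnt5b, a WNT ligand, gave 28, 32 and 24 reads against 146, 74 and 73. Both were separated in raw counts, with equal-depth values of 2.03 and 1.80 (edgeR adjusted p = 0.0269 and 0.0426). Their list-scaled values, 0.16 (SE 0.51) and -0.21 (SE 0.50), were close to that of the typical listed gene. Scaled, Cxcl12 was at 414 and 458 CPM in Yaf2KO 1 and 2 and 1048 in Yaf2KO 3, against 571 ± 49.2 in wild type (SD, n = 3), and without Yaf2KO 3 its list-scaled log2 fold change was -0.37. Wnt8b, a forebrain WNT ligand, was hardly detected (0, 1 and 0 counts against 6, 0 and 0).

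Adhesion and synapse-organising proteins had 10 members, and the reads of all 10 were more numerous in Yaf2KO. Groups were separate in 4, beside 27.4% of all listed genes. Their counts depended strongly on the library. Itga1, the collagen-binding integrin alpha 1, gave 43, 25 and 8 reads in the wild-type libraries and 349, 150 and 23 in the knockouts, and Yaf2KO 3 lay within the wild-type range. It was called at equal depth (2.77, SE 0.97, edgeR adjusted p = 0.029), with 1.77 without Yaf2KO 1 and 3.39 without wild type 1, and was 0.33 (SE 0.70) scaled. Itga1 passed the equal-depth filter only with its Yaf2KO reads. Lgi1, a secreted protein of the synaptic cleft linked to inherited epilepsy, gave 12, 9 and 33 reads against 175, 26 and 2. Its lowest and highest libraries were both Yaf2KO. It had the lowest list-scaled value of the tested members (-0.72, SE 0.89), from -2.09 to -0.06 with single libraries left out, and at equal depth its value turned from 1.90 to -0.36 without Yaf2KO 1.

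Ntng2, a membrane-anchored netrin that guides axons, gave 6, 9 and 25 reads against 144, 9 and 32. The groups overlapped and it was not called on either scale (2.2, SE 1.01, edgeR adjusted p = 0.0571 at equal depth; -0.08, SE 0.80, scaled). Its equal-depth value was 0.62 without Yaf2KO 1 and 3.02 without wild type 3. Adgre5, an adhesion receptor better known from leukocytes, gave 54, 65 and 49 reads against 467, 165 and 85, separated groups and an equal-depth value of 2.09 (SE 0.78, edgeR adjusted p = 0.0344), 1.16 without Yaf2KO 1. Its exons overlap those of Ddx39 on the other strand, and no strand setting is given, so reads of both genes cannot be told apart.

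Synapse organisers with few reads followed the raw pattern. Slitrk2, a leucine-rich repeat protein that induces synapses, gave 5, 2 and 1 reads against 16, 14 and 12, and was called at equal depth (2.34, SE 0.82, edgeR adjusted p = 0.0282, 3.12 without wild type 1). Sez6l, a complement-like membrane protein of neurons, gave 0, 2 and 1 reads against 14, 10 and 8. Dlg2, the postsynaptic scaffold PSD-93, gave 0, 0 and 0 reads against 4, 2 and 7. These 3 genes had no overlap between the genotypes, as had 27.4% of all listed genes. Pcdh8, a protocadherin of dendritic spines, overlapped (5, 3 and 3 against 12, 12 and 2), as did Lrrtm2, a presynapse-inducing protein (0, 0 and 2 against 6, 5 and 1), and Ptprq (1, 0 and 0 against 9, 0 and 0). Counts this low carry large counting error. Only Slitrk2 of these 6 passed the equal-depth filter, through its Yaf2KO reads alone.

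Myelin genes were represented by Mobp and Ncmap. Mobp, a protein of oligodendrocyte myelin on chromosome 9 (120149742 to 120181484, plus strand, mm10), gave 9, 8 and 11 reads in the wild-type libraries and 200, 56 and 13 in the knockouts. The groups did not overlap, though Yaf2KO 3 was only just above wild type. Its change was 3.25 (SE 0.99, edgeR adjusted p = 0.0224) at equal depth, 1.87 without Yaf2KO 1, and 0.78 (SE 0.62) on the list scale, 0.17 without Yaf2KO 1. Mobp passed the equal-depth filter only with its Yaf2KO reads, so that call is no support for a difference. Ncmap, of peripheral noncompact myelin, gave 28, 20 and 18 reads against 133, 43 and 63 and values of 1.85 (SE 0.77, edgeR adjusted p = 0.0451) and -0.16 (SE 0.54), with 1.26 at equal depth without Yaf2KO 1.

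Neuropeptide genes had few reads except for Pcsk1n, which encodes proSAAS, an inhibitor of prohormone convertase 1. It gave 232, 159 and 235 reads in the wild-type libraries and 1596, 466 and 353 in the knockouts. The groups were separate, and the equal-depth value was 1.95 (SE 0.72, edgeR adjusted p = 0.0334), 0.97 without Yaf2KO 1; the list-scaled value was -0.30 (SE 0.37). Exons of Pcsk1n overlap the oppositely oriented Eras, a Ras gene of embryonic stem cells, and their reads cannot be told apart here. Npy, the appetite-stimulating neuropeptide Y, gave 4, 4 and 4 reads against 18, 24 and 1. Nts, the neurotensin precursor, gave 2, 2 and 6 reads against 2, 18 and 12. Both overlapped between genotypes, and so did the peptide genes Npb (4, 1 and 4 against 15, 3 and 0) and Qrfp (0, 1 and 2 against 5, 0 and 1).

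Of 9 receptor members 3 averaged at least 10 counts, and these 3 were called at equal depth, beside 75.7% of tested genes. Among them, Grm6 and Il15ra entered that test through their Yaf2KO reads alone, so their calls are no support for a difference. Grm6, on chromosome 11 (50850685 to 50866208, plus strand, mm10), encodes the glutamate receptor of retinal ON bipolar cells. It gave 8, 2 and 4 reads in the wild-type libraries and 58, 17 and 32 in the knockouts, with no overlap. Its equal-depth value was 2.90 (SE 0.80, edgeR adjusted p = 0.02), 3.52 without wild type 1. On the list scale it had the highest value of the tested members, 0.97 (SE 0.70), and 0.74 to 1.66 with single wild-type libraries left out; with a knockout library left out it did not pass the filter. An antisense RNA, Gm12660, overlaps its exons.

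Il15ra, the high-affinity receptor chain for interleukin 15, gave 4, 6 and 9 reads against 23, 40 and 36, with Yaf2KO 1 the lowest knockout library. It came to 2.36 (SE 0.71, edgeR adjusted p = 0.0224) and, scaled, 0.66 (SE 0.72). Lpar1, a receptor for lysophosphatidic acid in cortical precursors, gave 64, 72 and 43 reads against 346, 168 and 98. It was separate in raw counts (1.77, SE 0.74, edgeR adjusted p = 0.0445, 1.16 without Yaf2KO 1) and -0.41 (SE 0.45) scaled. The serotonin receptor gene Htr7 was separate at low counts (1, 0 and 0 against 4, 11 and 7). The other 5 receptor genes (Sstr3, Mchr1, Crhr1, Ptgdr2 and the GABA receptor gene Gabrd) had at most 9 counts in any library and overlapped.

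The group of cell-internal signalling and cytoskeleton genes, which also took in the homeobox gene Tlx1, had 7 members. Of these, 3 were separate in raw counts, beside 27.4% of all listed genes. On the list scale 4 were tested, with 0 called, beside 0.798% of tested genes. Arhgef28, which encodes a protein that binds neurofilament RNA, gave 52, 85 and 69 reads in the wild-type libraries and 775, 223 and 117 in the knockouts. Its groups were separate (2.43, SE 0.81, edgeR adjusted p = 0.0265, 1.31 without Yaf2KO 1) and its list-scaled value was 0.06 (SE 0.46). Itpka, an inositol trisphosphate kinase of dendritic spines, gave 45, 47 and 37 reads against 412, 106 and 30. Yaf2KO 3 was the lowest of the 6 libraries, and the gene was still called at equal depth (2.08, SE 0.89, edgeR adjusted p = 0.0474). Without Yaf2KO 1 this value was 0.66, and scaled it was -0.42 (SE 0.55), with -1.05 without that library. Efhd1, a mitochondrial calcium-binding protein, gave 27, 12 and 15 reads against 85, 75 and 26 and was not called on either scale.

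Dok5, a docking protein of neurotrophin receptors, gave 9, 2 and 2 reads against 29, 17 and 36 (2.62, SE 0.81, edgeR adjusted p = 0.0224 at equal depth, 3.69 without wild type 1). Rnf112, a neural ubiquitin ligase, gave 2, 1 and 1 reads against 20, 10 and 12 (3.28, SE 0.86, edgeR adjusted p = 0.0188). Both were separate, and Rnf112 remained separate after scaling. Both entered the equal-depth test through their Yaf2KO reads alone. Pde1a, a calmodulin-dependent phosphodiesterase, gave 10, 4 and 4 reads against 4, 52 and 21. It was called at equal depth (2.07, SE 0.89, edgeR adjusted p = 0.0485) but was 1.04 without Yaf2KO 2. Pde1a also needed its Yaf2KO reads to pass that filter. Its list-scaled value was 0.39 (SE 0.96), with -0.28 without Yaf2KO 2, 1.05 without wild type 1 and 0.97 without Yaf2KO 1. Yaf2KO 1 was at the wild-type level in raw reads for this gene, although it had the largest listed sum. The homeobox gene Tlx1 gave 0, 1 and 0 reads against 0, 5 and 0.

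Genes of transmitter metabolism and release stayed near the detection limit. Gad2, which makes the transmitter GABA and was one of the fixed neuron markers, gave 0, 1 and 0 reads in the wild-type libraries and 3, 6 and 1 in the knockouts. Hnmt, which inactivates histamine, gave 1, 0 and 1 reads against 20, 3 and 2. Haao gave 1, 0 and 1 reads against 5, 6 and 3, and Syt8, a synaptotagmin, 1, 0 and 1 against 8, 9 and 4. The last 3 were separate and Gad2 was not, beside 27.4% of all listed genes that were separate. None of the 4 passed the low-count filter on either scale.

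For the clone-named rows, the origin of their GO text was not tested. RP23-392K24.8 overlaps the ghrelin gene Ghrl and AC156028.1 the gene Adgrl1, each on the other strand, and RP23-149L20.1 is annotated as a processed pseudogene. They had at most 18 counts in any library and 0 were separate, beside 27.4% of all listed genes.

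Of the genes caught by letters, Fancd2 gave 1310, 1416 and 1100 reads in the wild-type libraries and 10383, 2055 and 1389 in the knockouts. Yaf2KO 3 lay within the wild-type range. Its equal-depth call (1.85, SE 0.74, edgeR adjusted p = 0.0397) rested on Yaf2KO 1, without which the value was 0.43, and it was -0.58 (SE 0.40) scaled. Hormad1 (44, 22 and 23 against 392, 69 and 19) and Spata22 (72, 22 and 34 against 134, 235 and 42) overlapped, and Stra8 (20, 16 and 34 against 221, 113 and 41) was separate. Hormad1 and Stra8 were called at equal depth (2.43 and 2.42, edgeR adjusted p = 0.0414 and 0.0266), with 0.57 and 1.72 without Yaf2KO 1. The list-scaled values of Hormad1, Spata22 and Stra8 were -0.15 (SE 0.66), -0.36 (SE 0.62) and 0.18 (SE 0.49). The Spata22 identifier is annotated in the reference as Gm49340, a locus that shares exons with Spata22 and the olfactory receptor gene Olfr20. Rsph4a, a radial spoke protein of motile cilia, gave 4, 3 and 0 reads against 52, 55 and 10. It had the largest equal-depth value of the members (3.99, SE 1.0, edgeR adjusted p = 0.0188) and stayed separate after scaling. However, it entered the equal-depth test through its Yaf2KO reads alone and did not pass the filter of the scaled fit. Without wild type 1 its equal-depth value was 4.59. Spef2, of the sperm flagellum, gave 9, 2 and 1 reads against 49, 9 and 1.

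Scaling removed most of the separation. In scaled values 5 members (Dlg2, Rnf112, Rsph4a, Timp4 and Syt8) had every Yaf2KO library above every wild-type library, beside 4.11% of all listed genes. Of these only Rsph4a had a mean count of at least 10, so 1 of 30 members at that level was separate, beside 7.04% of listed genes. None lay below, beside 3.52%.

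The knockout libraries differed from one another within the same genes. Among the 30 members averaging 10 or more counts, the highest scaled knockout value was in Yaf2KO 1 for 14 members, in Yaf2KO 2 for 6 and in Yaf2KO 3 for 10. All 483 listed genes at that level divided as 220, 106 and 157. Relative to the wild-type mean, Lgi1 was at 0.59, -1.17 and -3.55 log2 units in Yaf2KO 1, 2 and 3, and Itpka at 0.35, -0.66 and -1.53. The reverse order was seen for Sulf1 (-0.23, 0.82 and 1.39) and Il15ra (-0.90, 0.72 and 1.49). Fgf8 (-0.57, 1.45 and 1.25), Pde1a (-2.70, 1.23 and 0.86) and Tnc (-0.52, 1.48 and 0.34) were low in Yaf2KO 1 and highest in Yaf2KO 2.

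The 5 feeder markers with a mean count of at least 10 had medians of -1.51, 0.94 and 0.32 in the same libraries, and the 7 stem cell markers 0.37, -0.01 and -0.69. Neural-term members had 0.10, -0.01 and 0.34, and the meiotic members 0.26, -0.15 and -0.89. Feeder sums made up 1001, 4975 and 2847 of every 100000 listed counts in Yaf2KO 1, 2 and 3 and 2169 to 3019 in wild type. The part of feeder RNA in the values of single members was not tested. In such bulk RNA, fewer cells of a type and less RNA per cell cannot be told apart.

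**Figure D3:**
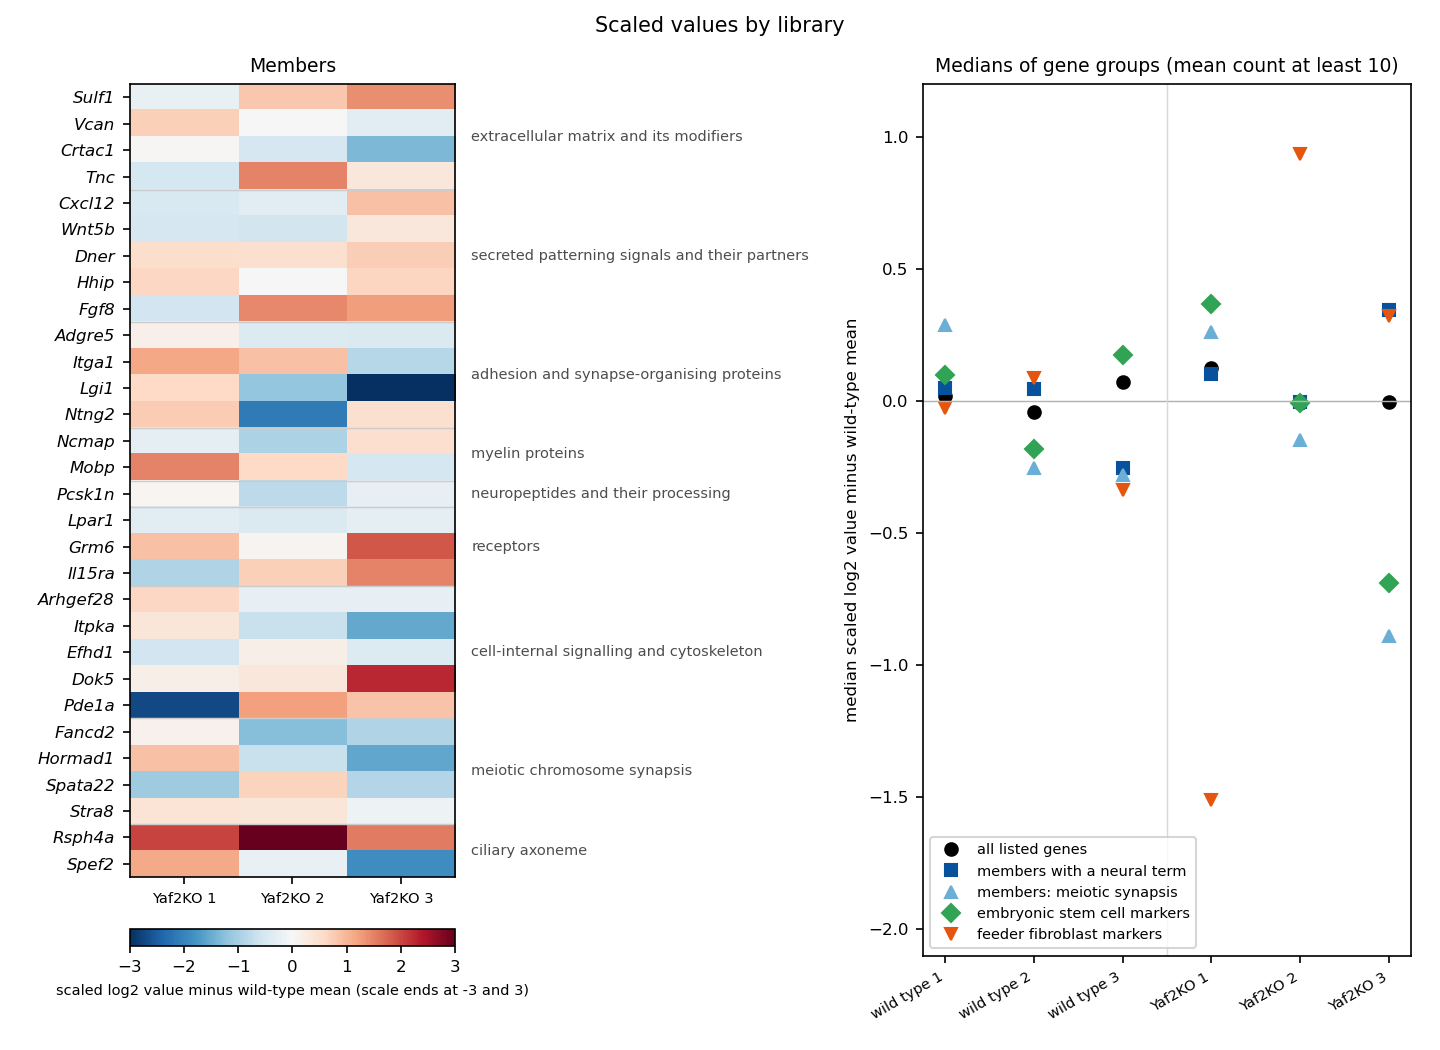
Left, scaled log2 value minus the wild-type mean for the 30 members averaging 10 or more counts in each Yaf2KO library, red above and blue below the wild-type mean. Right, medians of the same quantity in all 6 libraries for all listed genes, neural-term and meiotic members, stem cell markers and feeder markers; feeder markers lie at -1.51 in Yaf2KO 1 and 0.94 in Yaf2KO 2, and neural-term members between -0.26 and 0.34.

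Other neural genes fixed as markers were few in the table. Of 20 neural progenitor symbols 3 were listed (Pax6, Nes and Hes5) and 2 tested. With the 2 listed of the neuron list, of which 1 was tested, 0 were called on the list scale by edgeR; 1 gene, Nefm, had an unadjusted p under 0.05. Glial and neural crest markers had 0 listed.

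Annotation that the rule did not use was also read for the 51 neural-term members. The cellular component text named an extracellular location in 45.1% of them, beside 22.9% of the 754 listed protein-coding genes that are not members. A plasma membrane location was named in 45.1% and 22.3%, and the nucleus in 3.92% and 26.0%. 7-transmembrane families were given for 7 of the 51 members and for 3.71% of the others. None of these comparisons is independent of the rule. Removing texts with the word transcription takes nuclear factors out. Words for synaptic transmission and neuropeptide signalling pick receptors and secreted proteins. Members must also carry a GO text, as 933 of 1653 listed genes do, while the 754 others were not limited to annotated genes.

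Promoters of 43 members were found in RefSeq (GRCm38.p6), as windows of 250 bases before to 50 after the gene start. They held a median of 12 CG dinucleotides, with an interquartile range of 6 to 24, beside 7 (3 to 21) over all 27025 genes of the table and 7 (4 to 17) over 565 matched protein-coding genes of the list. At least 10 CG were present in 28 of the 43 (65.1%), beside 43.9% of all promoters and 42.7% of those 565 genes. For the matched neural-term members the share was 64.1%. Members must carry a GO text and the other genes need not, so this comparison is not independent of the rule. The range was wide, from 2 in Timp4 to 47 in Wnt5b and 46 in Htr7. Of the 5 tested members with the highest list-scaled values, Fgf8 and Sulf1 were not matched. Grm6, Mobp and Il15ra had 4, 5 and 6 CG in the whole window, and 4, 4 and 2 in the 250 bases before the start. The 250 bases before the start of these last 3 are shown because their list-scaled values were the highest of the matched tested members. CG is in capitals and the rest in lower case, 5′ to 3′ on the gene's strand.
Grm6, chr11:50850435-50850684, plus strand: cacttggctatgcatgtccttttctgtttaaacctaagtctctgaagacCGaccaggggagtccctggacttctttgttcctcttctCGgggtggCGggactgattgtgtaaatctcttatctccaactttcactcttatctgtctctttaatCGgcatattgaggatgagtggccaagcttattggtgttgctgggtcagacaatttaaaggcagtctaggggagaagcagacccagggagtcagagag
Mobp, chr9:120149492-120149741, plus strand: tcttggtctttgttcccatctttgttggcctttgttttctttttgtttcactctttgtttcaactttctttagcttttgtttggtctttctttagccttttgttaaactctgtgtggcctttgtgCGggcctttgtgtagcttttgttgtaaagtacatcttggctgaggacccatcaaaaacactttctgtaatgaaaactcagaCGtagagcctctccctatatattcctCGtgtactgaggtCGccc
Il15ra, chr2:11705043-11705292, plus strand: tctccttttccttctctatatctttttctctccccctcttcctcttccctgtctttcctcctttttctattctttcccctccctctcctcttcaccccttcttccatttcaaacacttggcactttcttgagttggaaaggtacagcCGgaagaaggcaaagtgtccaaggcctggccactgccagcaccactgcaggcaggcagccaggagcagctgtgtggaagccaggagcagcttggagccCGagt

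Short motifs of factors that work with variant Polycomb complexes were searched on both strands of the same 300-base windows. The YY1 letters GCCATNTT were present in 1 of 43 member promoters, that of Spef2, beside 6.23% of all promoters. The E-box CACGTG, bound by MYC or MGA with MAX, was present in 3 (Hormad1, Mchr1 and Sstr3), beside 7.24%. The E2F letters GCGGGAA were present in 3 (Hormad1, Npy and Spata22), beside 4.66%. These matches describe letters in the windows and not binding.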

How the data were processed

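RNA was measured in 6 libraries, 3 per genotype, grouped by sample title. The deposited files hold raw read counts per gene, per the file headers; TopHat2 2.0.12, HTSeq 0.6.0, Cufflinks 2.2.1 and the build mm10 appear, without roles, in the submitters' processing notes. How the 1653 rows were chosen and the strand setting are not given in the sources used here. Members and lists were chosen with earlier results of these data known, and role groups and the split by GO sense after the counts were seen. edgeR 4.0.16 (R 4.3.3; robust quasi-likelihood, filterByExpr, Benjamini-Hochberg at 0.05 over all tested genes) was run with TMM factors (0.923 to 1.08) and at equal depth; standard errors derive from the F statistic. Alternatives were DESeq2 1.42.0 and its size factors, other scalings, no filter, a replicate block and each library left out. Scaled log2 values add the worth of 1 read at the mean scaled sum. Annotation was GENCODE M21: 57 members matched, 46 with identical coordinates. Every pair of libraries differed by more than sampling noise (lowest chi-square 5.01 per degree of freedom). The scripts were tested on simulated data. Named members are the 15 with most reads, the 8 highest and 8 lowest scaled values, and up to 4 per fixed role list; others were named after their values were seen. Python 3.11.15, pandas 2.3.3 and numpy 2.4.6 were used.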

Additional observations from a re-analysis of the deposited data

How the results depend on the processing

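Restriction to neural-term members was chosen after seeing the data; the other alternatives were planned. With list scaling, the count of called members was 0 under each of the 13 alternatives run, beside 0.0% to 3.17% of all tested genes. At an unadjusted p under 0.05 there were 3 members without a low-count filter, 4 without Yaf2KO replicate 1 and 1 without Yaf2KO replicate 3. The share of all tested genes at that cut is not given here. After adjustment, 0.916%, 3.17% and 0.58% of all tested genes were called in these fits. The 26 calls at equal depth became 30 with the DESeq2 Wald test (85.8% of all tested genes), 22 among neural-term members and 6 of 57 without a filter (8.97% of all). Leaving out single libraries gave 0 to 33 calls, beside 0.0% to 91.5% of all. Complete separation held for 28 members in raw counts, 5 in scaled values and 30 to 39 with single libraries left out, beside 27.4%, 4.11% and 29.5% to 53.5% of all listed genes. The median scaled log2 fold change, 0.06, became 0.42 without a filter, where the median of all tested genes was 0.20, and -0.08 to 0.21 with single libraries left out.

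No fitted member was called on the list scale under an alternative. Signs turned in 24 of 295 values of 25 named members, 19 of them with a library left out. Without a filter Adgre5 came to 0.0769, Ntng2 to 0.32, Hormad1 to 0.18, Pcsk1n to 0.0258 and Wnt5b to 0.0586. With single libraries left out, Adgre5 ran from -0.45 to 0.0764, Itga1 from -0.12 to 0.89, Ntng2 from -0.63 to 0.60, Arhgef28 from -0.30 to 0.43, Efhd1 from -0.59 to 0.16, Vcan from -0.23 to 0.33, Tnc from -0.089 to 1.03, Hormad1 from -1.12 to 0.25, Spata22 from -1.14 to 0.34, Cxcl12 from -0.37 to 0.37, Wnt5b from -0.56 to 0.084 and Dner from -0.033 to 0.76. The cause was not tested.

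With replicate number added as a block (a paired fit), 15 members were called at equal depth and 0 on the list scale, beside 33.5% and 0.0% of all tested genes. Between libraries sharing a number, deviations from the group means had correlations of 0.04, 0.17 and 0.14 across 483 genes. Between libraries with unlike numbers they ran from -0.33 to 0.23. These values do not settle whether the numbers mark pairs, and the main fits did not take them as pairs. At equal depth 13 of the 26 called members moved over 1.5-fold without Yaf2KO 1, 5 without wild type 1 and 2 without Yaf2KO 2. Counts under about 10 reads limit any statement on the 27 members with a lower mean.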
